A study of Mus musculus with 4 samples.

Results

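The genes described here are 10 receptors that are used to recognise tissue macrophages: Mrc1, Cd163, Lyve1, Folr2, Stab1, Msr1, Marco, Adgre1, Csf1r and Mertk. They were chosen by name, as known receptors of such cells, and with earlier results of these data known. A probe belonged to the set when its target name equalled one of these symbols, with Adgre1 listed under its older name EMR1 and Lyve1 under XLKD1. All 10 genes were found, as 16 of the 45281 probes on each array. The array names 31492 targets in all.

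Macrophages of healthy tissue depend on the receptor encoded by Csf1r, whose ligands are CSF1 and IL-34. They carry scavenger receptors that bind and internalise modified lipoproteins, haemoglobin complexes, glycoproteins, hyaluronan and dying cells. In adipose tissue, resident macrophages lie along vessels and between adipocytes, and further macrophages derived from blood monocytes gather around stressed or dying adipocytes during obesity.

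RNA came from subcutaneous white fat of C57BL/6 mice aged 8 to 12 weeks. FtMT-Adip mice carry a fat-specific transgene for mitochondrial ferritin, which stores iron inside mitochondria, and the comparison group was wild-type (WT). Both groups were fed for 3 weeks on a diet labelled Dox-HFD, a high-fat diet, where Dox commonly stands for doxycycline. The labels do not name the promoter that drives the transgene. Each group had 2 arrays, and nothing in the labels tells single mice from pooled ones. The p-values rest on the spread between these arrays, which may be technical, and on a spread shared across probes. The question posed is how overproduction of mitochondrial ferritin in fat alters the tissue's expression.

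Each Illumina BeadChip array gives 1 fluorescence signal per probe. Median signals per array lay between 116.5 and 119, and total signals between 14143397 and 15086032. A probe was called above background when it exceeded the 95th percentile of 1479 probes for odour and pheromone receptors, taken as not expressed in fat, which was 119.6 to 123.5 per array. The 20884 probes above background on at least 2 of the 4 arrays were tested. With 2 arrays against 2, an exact permutation test of a single probe cannot go below p = 0.333, so the tests below come from a limma model fitted across all tested probes, and the number of arrays limits the precision.

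Transcripts of 5 of the 10 receptors were higher in FtMT-Adip fat: Adgre1, Folr2, Mrc1, Stab1 and Csf1r. The rises ran between 1.52-fold and 3.13-fold over their probes. In whole tissue, more macrophages and more receptor RNA per macrophage cannot be told apart. Cd163 was 1.45-fold higher but did not pass the test. The probes for Lyve1, Marco and Mertk showed differences of 1.04-fold to 1.17-fold and did not pass it, and Msr1 was not above background. By limma with Benjamini-Hochberg adjustment, 9 of the 16 probes were higher and 0 lower, while 5 tested probes were not called and 2 were too dim to test. Of all tested probes, 3.27% were called higher and 4.15% lower, 7.42% in either direction. At an unadjusted p under 0.05 there were 10 receptor probes, all of them higher, against 21.3% of all tested probes in either direction. The median log2 change over all 16 probes was 0.65, and over all probes of the array it was 0.0016. Because the receptors were chosen with earlier results of these data known, such comparisons are descriptive only. Log2 values of the groups did not overlap for 13 of the 14 tested probes, with FtMT-Adip above WT. Of all tested probes, 25.6% had FtMT-Adip above WT without overlap, and 51.5% had no overlap in either direction. The dimmer Mertk probe (ILMN_2491355), among the 13, was tested only because both FtMT-Adip arrays exceeded background, which favours this order.

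**Figure D1:**
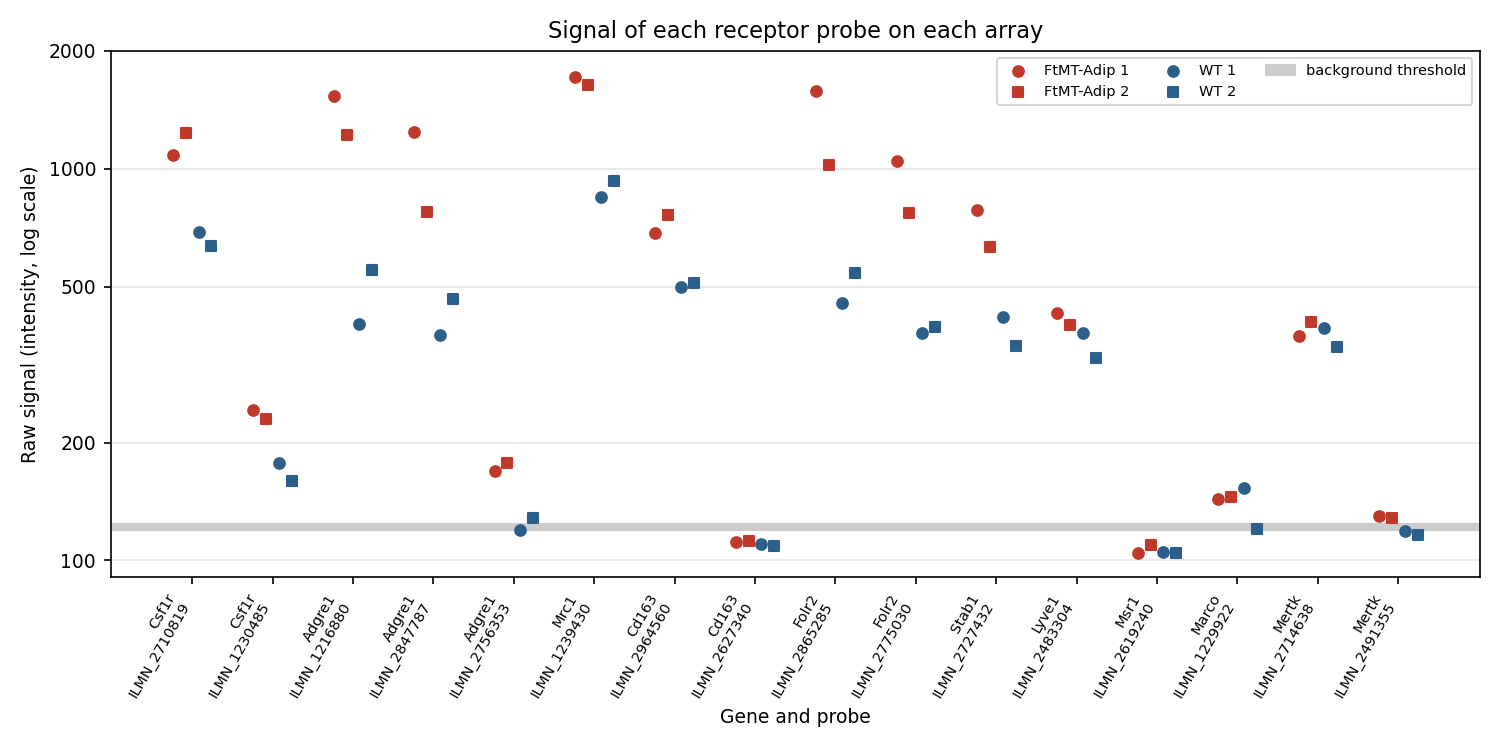
Raw signal (log axis) of the 16 receptor probes on each of the 4 arrays, with FtMT-Adip in red left of WT in blue and replicates 1 and 2 as circles and squares. The grey band is the background threshold, 119.6 to 123.5. Adgre1, Folr2, Mrc1, Stab1 and Csf1r are higher on both FtMT-Adip arrays, while Msr1 and the dimmer Cd163 probe lie below the band.

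Csf1r encodes the receptor tyrosine kinase that keeps macrophages alive. Its brighter probe (ILMN_2710819) gave signals of 1086 and 1236 in FtMT-Adip 1 and 2, against 689.7 and 636.5 in WT 1 and 2. Both FtMT-Adip arrays lay above both WT arrays. After normalization the mean log2 signal was 10.13 ± 0.07 in FtMT-Adip and 9.28 ± 0.01 in WT (SD, n = 2 each), a 1.80-fold rise (log2 change 0.85, SE 0.150, limma adjusted p = 0.0113). The dimmer probe (ILMN_1230485) gave 242 and 229 in FtMT-Adip, against 178 and 159 in WT, again without overlap. Its log2 change was 0.61 (SE 0.147, limma adjusted p = 0.0397). That call ended without FtMT-Adip 1 (0.52), without WT 1 (0.69) or without WT 2 (0.52), whereas the brighter probe kept its call without any 1 of the 4 arrays. In the values the authors normalized, neither Csf1r probe was called (0.69 with limma adjusted p = 0.227 for the brighter probe, and 0.93 with limma adjusted p = 0.0841 for the dimmer one).

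Adgre1 encodes an adhesion-type receptor that is the classical surface marker of mouse macrophages. It showed the highest fold change among the receptor probes. The brightest of its 3 probes (ILMN_1216880) gave signals of 1537 and 1219 in FtMT-Adip 1 and 2, against 402 and 552 in WT 1 and 2. Both FtMT-Adip arrays lay far above both WT arrays. The mean log2 signal was 10.40 ± 0.34 in FtMT-Adip and 8.75 ± 0.42 in WT (SD, n = 2 each), a 3.13-fold rise with a 95% interval of 2.17 to 4.53 (log2 change 1.65, SE 0.235, limma adjusted p = 0.00458). It stayed called without any 1 array, with log2 changes of 1.33 to 1.94.

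The other 2 Adgre1 probes rose as well. ILMN_2847787 gave 1238 and 773 in FtMT-Adip, against 375 and 466 in WT, and ILMN_2756353 gave 169 and 177 in FtMT-Adip, against 119.5 and 128.4 in WT. Neither probe had overlapping groups, and for ILMN_2756353 only 1 WT array exceeded background. Their log2 changes were 1.31 (SE 0.272, limma adjusted p = 0.0220) and 0.68 (SE 0.118, limma adjusted p = 0.0101). The call of ILMN_2847787 ended without FtMT-Adip 1 (0.89) or without WT 1 (1.08), and that of ILMN_2756353 without WT 1 (0.58). The dimmest probe gave the smallest change, and its change was 0.46 without background correction and 1.06 with a normexp offset of 16, a constant added after background correction.

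Mrc1 encodes the mannose receptor CD206, an endocytic lectin for glycoproteins with exposed mannose. Its probe (ILMN_1239430) gave signals of 1711 and 1637 in FtMT-Adip 1 and 2, against 845 and 928 in WT 1 and 2. The arrays of a group lay close together and the groups far apart. Mean log2 signals were 10.70 ± 0.14 in FtMT-Adip and 9.71 ± 0.17 in WT (SD, n = 2 each), a 1.99-fold rise (log2 change 0.99, SE 0.164, limma adjusted p = 0.00865) that stayed called without any 1 array (0.86 to 1.10). In the values the authors normalized, its change was 0.65 and was not called (limma adjusted p = 0.275).

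Folr2 encodes folate receptor beta, which binds folate at the macrophage surface and marks resident macrophages of many tissues. Both of its probes rose. ILMN_2865285 gave 1576 and 1022 in FtMT-Adip 1 and 2, against 454 and 543 in WT 1 and 2. ILMN_2775030 gave 1048 and 771 in FtMT-Adip, against 380.5 and 393.9 in WT. On both probes FtMT-Adip 1 was the highest array and the groups did not overlap. The log2 changes were 1.44 (2.72-fold, SE 0.254, limma adjusted p = 0.0110) and 1.31 (2.47-fold, SE 0.209, limma adjusted p = 0.00754). Without WT 1 the first stood at 1.24 and was not called, while the second stayed called without any 1 array (1.01 to 1.62).

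Stab1 encodes stabilin-1, a large scavenger receptor of macrophages and sinusoidal and lymphatic endothelium that clears modified lipoproteins and matrix fragments. Its probe (ILMN_2727432) gave 783 and 629 in FtMT-Adip 1 and 2, against 417 and 352 in WT 1 and 2, without overlap. This is a 1.91-fold rise (log2 change 0.93, SE 0.193, limma adjusted p = 0.0217). The call ended without FtMT-Adip 1 (0.69) or without WT 2 (0.84).

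Cd163 encodes the receptor that takes up complexes of haemoglobin and haptoglobin, and so delivers haem iron to macrophages. Its brighter probe (ILMN_2964560) gave 686 and 764 in FtMT-Adip 1 and 2, against 498.5 and 510.3 in WT 1 and 2, and the groups did not overlap. The change was 1.45-fold with a 95% interval of 1.15 to 1.84 (log2 change 0.54, SE 0.152, unadjusted p = 0.00627 and limma adjusted p = 0.0698). It passed in 1 of the 13 alternative settings, the model without a variance trend (adjusted p = 0.0421). The second Cd163 probe (ILMN_2627340) read 109 to 112 on every array, below background, and was not tested.

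**Figure D2:**
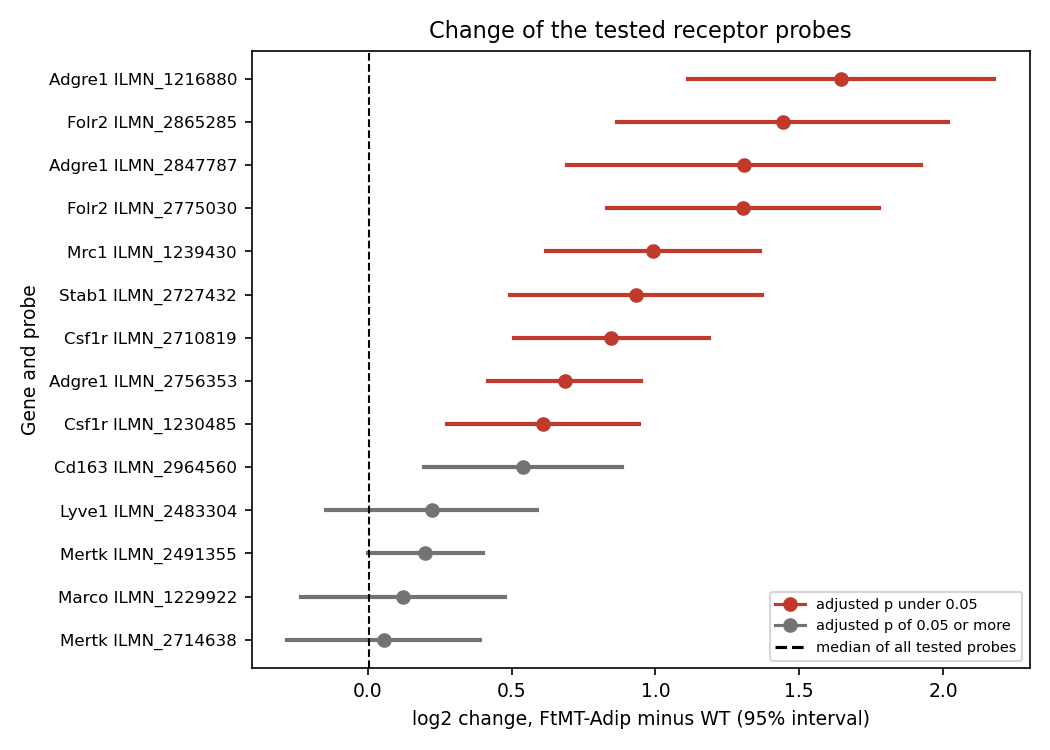
Log2 change (FtMT-Adip minus WT) of the 14 tested receptor probes with its 95% interval, red where the limma adjusted p is under 0.05 and grey otherwise; the dashed line is the median of all tested probes. Changes run from 0.05 for Mertk to 1.65 for Adgre1, and 9 of the probes are red.

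Lyve1 encodes a hyaluronan receptor of lymphatic endothelium and of macrophages that lie along vessels. Its probe (ILMN_2483304) gave 429 and 399 in FtMT-Adip 1 and 2, against 380.9 and 328.5 in WT 1 and 2. The groups did not overlap, and the change was 1.17-fold (log2 change 0.22, 95% interval -0.15 to 0.59, SE 0.162, limma adjusted p = 0.498). It was -0.000796 in the values the authors normalized.

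Mertk encodes a receptor kinase through which macrophages engulf dying cells that are tagged by the bridging proteins GAS6 and protein S. Its brighter probe (ILMN_2714638) gave 373.7 and 405.4 in FtMT-Adip 1 and 2, against 391.5 and 350.1 in WT 1 and 2, so the raw signals of the groups overlapped. The change was 1.04-fold with a 95% interval of 0.823 to 1.31 (log2 change 0.05, SE 0.148, limma adjusted p = 0.882). The dimmer probe (ILMN_2491355) gave 129.7 and 128.3 in FtMT-Adip, against 118.8 and 116.1 in WT, and was tested only because both FtMT-Adip arrays exceeded background. Neither WT array did. With WT set at the higher of its own signal and the lowest signal above background on that array, the ratio was 1.10-fold. That ratio carries no error estimate. The measured change was 1.15-fold, with a 95% interval of 0.9996 to 1.32 (limma adjusted p = 0.236). On the log2 scale the 95% interval was -0.28 to 0.39 for the brighter Mertk probe, against 0.62 to 1.36 for Mrc1. Whether the change differed between receptors was not tested.

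Marco and Msr1 encode class A scavenger receptors that bind bacteria and modified lipoproteins. The Marco probe (ILMN_1229922) gave 143 and 145 in FtMT-Adip 1 and 2, against 153 and 121 in WT 1 and 2. The WT arrays lay on both sides of the FtMT-Adip arrays, the log2 change was 0.12 (SE 0.156, limma adjusted p = 0.723), and it was -0.12 without WT 2. The Msr1 probe (ILMN_2619240) read 104 to 109 on all arrays, not above background on any of them, so no difference in Msr1 was detectable with it.

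**Figure D3:**
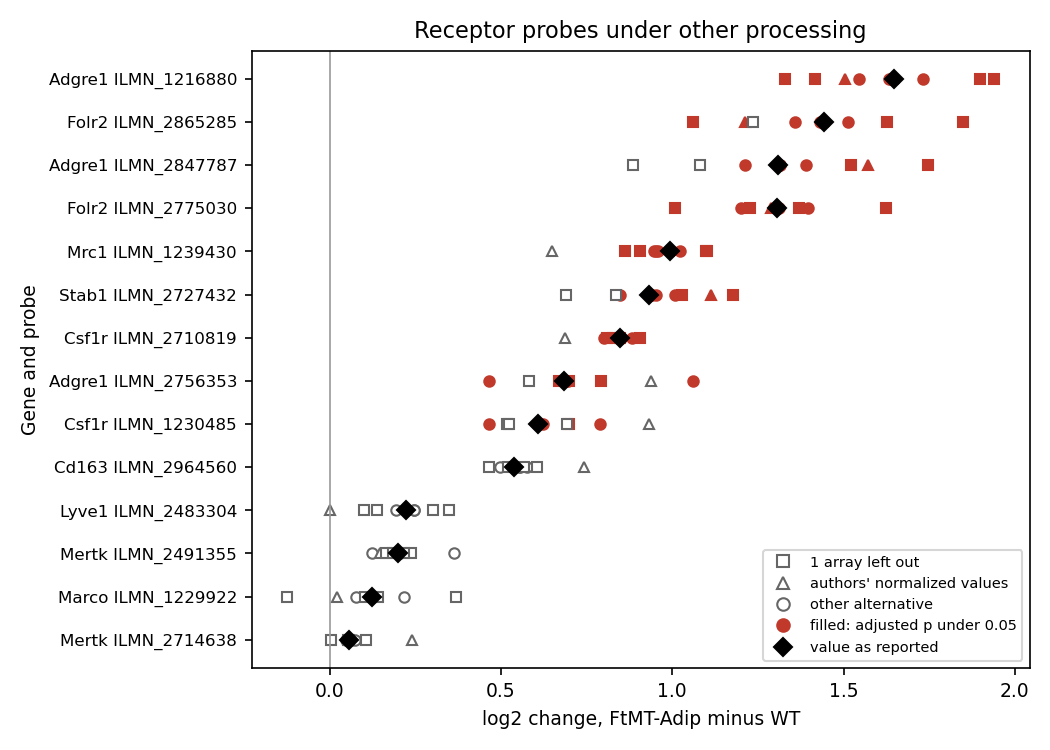
Log2 change of each tested receptor probe as reported (black diamonds) and under the 13 alternative settings: 1 array left out (squares), the authors' normalized values (triangles) and other processing (circles), filled red where the limma adjusted p is under 0.05. The brightest Adgre1 probe and Folr2 ILMN_2775030 are filled in every setting, and Lyve1, Marco and Mertk in none.

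The number of receptor probes called higher depended on single arrays. It was 5 without WT 1, 6 without FtMT-Adip 1, 7 without WT 2 and 9 without FtMT-Adip 2, and 0 were lower in each case. Within the FtMT-Adip group, array 1 exceeded array 2 on 7 of the 9 called probes. In the values the authors normalized, 5 receptor probes were called, namely 2 of Adgre1, both of Folr2 and Stab1. The authors' deposited table gives a ratio of FtMT-Adip over WT above 1 for all 14 tested probes, between 1.01 for Lyve1 and 3.03 for Adgre1 ILMN_2847787. The p-value in the authors' deposited table is under 0.05 for 2 of them, Stab1 (0.00111) and Adgre1 ILMN_2756353 (0.0471).

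Promoter sequences are shown for Mrc1, Folr2 and Stab1, which rose together. They come from RefSeq on GRCm38.p6 and run from 250 bases before to 50 bases after a transcript start, written in the direction of the gene. Such sequences were matched for 6 of the 10 genes, as 7 promoters, because Folr2 has 2 starts. Adgre1, Csf1r, Lyve1 and Msr1 were not matched. Mrc1 is at chr2:14229164-14229463 on the plus strand, the outer (upstream) Folr2 start at chr7:101857141-101857440 and the inner one at chr7:101845282-101845581, both on the minus strand, and Stab1 at chr14:31168592-31168891 on the minus strand. Capitals mark matches, on either strand, to AGGAAGT, a core bound by the macrophage factor PU.1, or to TGACTCA, bound by AP-1.
Mrc1: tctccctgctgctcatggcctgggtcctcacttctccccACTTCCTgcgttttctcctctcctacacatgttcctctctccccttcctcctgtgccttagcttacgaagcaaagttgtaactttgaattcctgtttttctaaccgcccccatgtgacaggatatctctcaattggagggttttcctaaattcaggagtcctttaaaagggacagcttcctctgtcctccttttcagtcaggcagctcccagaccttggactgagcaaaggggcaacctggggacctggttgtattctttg
Folr2 outer start: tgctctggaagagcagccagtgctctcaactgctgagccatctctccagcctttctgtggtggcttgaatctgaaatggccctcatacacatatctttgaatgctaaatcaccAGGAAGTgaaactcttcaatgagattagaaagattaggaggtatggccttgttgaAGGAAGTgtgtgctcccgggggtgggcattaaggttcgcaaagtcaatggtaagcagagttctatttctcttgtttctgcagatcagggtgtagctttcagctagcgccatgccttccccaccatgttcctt
Folr2 inner start: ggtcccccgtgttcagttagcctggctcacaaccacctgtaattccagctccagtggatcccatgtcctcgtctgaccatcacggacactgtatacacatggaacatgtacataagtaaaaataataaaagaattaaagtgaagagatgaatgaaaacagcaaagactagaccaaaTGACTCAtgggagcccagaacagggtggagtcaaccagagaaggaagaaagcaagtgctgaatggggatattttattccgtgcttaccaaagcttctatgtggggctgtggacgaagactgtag
Stab1: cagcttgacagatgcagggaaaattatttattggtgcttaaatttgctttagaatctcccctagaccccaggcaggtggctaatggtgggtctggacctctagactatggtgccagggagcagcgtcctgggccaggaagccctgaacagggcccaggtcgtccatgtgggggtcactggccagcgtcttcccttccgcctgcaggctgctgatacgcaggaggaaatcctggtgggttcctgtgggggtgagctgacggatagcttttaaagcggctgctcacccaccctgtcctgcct

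The longer PU.1 motif GAGGAAGT and the motif CACGTG, bound by MITF and TFE factors, were found in 0 of the 7 promoters, against 3.20% and 7.15% of 32851 promoters of the same length. TGACTCA was found in 1 of 7, at position -74 of the inner Folr2 start, against 5.20% of all. The shorter core AGGAAGT, which lies within GAGGAAGT and was added after the longer motif gave no match, was found in 2 of 7, at position -211 of Mrc1 and at -137 and -82 of the outer Folr2 start, against 9.35% of all promoters. Positions are those of the first base of the match, as printed, relative to the transcript start. These matches describe the letters and are not evidence of binding.

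Markers of macrophages and other myeloid cells rose on the same arrays. Of 15 such markers, all of them tested, 10 were higher in FtMT-Adip and 0 lower, with a median log2 change of 1.03 against 0.0048 over all tested probes. Cd68, a lysosomal glycoprotein of macrophages, stood at 1.83 (SE 0.155, limma adjusted p = 0.000641), and the Fc receptor gamma chain gene Fcer1g at 1.84 (SE 0.160, limma adjusted p = 0.000641). The high-affinity Fc receptor gene Fcgr1 stood at 1.31 and the complement gene C1qb at 1.38. The summed signal of the 15 probes was 41531 and 38289.8 in FtMT-Adip 1 and 2, against 19591 and 21103 in WT 1 and 2, and each of the 15 markers was above background on at least 2 arrays.

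Stab1, Lyve1 and Mrc1 are also made by endothelial cells. For lymphatic endothelium, 0 of 6 tested markers were called and the median log2 change was 0.06. The summed signal was 2570 and 2696 in FtMT-Adip, against 2299.5 and 2387.1 in WT, and the defining gene Prox1 was not above background on any array. For blood endothelium, 3 of 8 tested markers were lower and 0 higher, with a median of -0.60. The tight junction gene Cldn5 (-1.35), the cadherin gene Cdh5 (-1.02) and Pecam1 (-0.83) fell, and the call of Pecam1 ended without FtMT-Adip 1, WT 1 or WT 2, with values from -1.04 to -0.64 over the 4 left-out arrays. The summed signal was 5016 and 6352 in FtMT-Adip, against 8871.4 and 9839.5 in WT. The part of endothelial RNA in the receptor values was not tested.

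Adipocyte markers, which check the tissue label, were tested in 9 of 9 cases, and of these the Fabp4 probe was below background on both FtMT-Adip arrays. Of the 9 markers, 7 were lower in FtMT-Adip and 0 higher, with a median log2 change of -1.35 and a summed signal of 35513 and 50964 in FtMT-Adip, against 124417 and 103037 in WT. The adipsin gene Cfd (-3.04), the carbonic anhydrase gene Car3 (-1.74), the lipid droplet gene Cidec (-1.41) and the leptin gene Lep (-1.51) were among the 7. Lep lost its call without WT 2, with values of -2.14 to -0.91 over the 4 left-out arrays. The count of lower markers was 5 without FtMT-Adip 1 or WT 1 and 8 without FtMT-Adip 2, and it was 4 in the model without a variance trend. The part of this lower adipocyte signal in the receptor values was not tested.

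Skeletal muscle markers set FtMT-Adip 1 apart. The summed signal of 5 tested markers was 6428 in FtMT-Adip 1 and 2030.1 in FtMT-Adip 2, against 1093 and 1144 in WT 1 and 2. Atp2a1, the calcium pump of fast muscle, gave 1498 and 321 in FtMT-Adip, against 123 and 155 in WT. Of these markers 2 were called, Atp2a1 and the actin gene Acta1, and both calls ended without WT 1 or WT 2, with values of 1.52 to 4.07 and 1.07 to 2.49 over the 4 left-out arrays. Without FtMT-Adip 2 all 5 were called higher, and the median of 1.76 over the 5 markers became 2.86 without FtMT-Adip 2 and 0.53 without FtMT-Adip 1. In the model without a variance trend 1 was called. Without FtMT-Adip 1, 6 of the 9 called receptor probes kept their calls: Adgre1 ILMN_1216880 (1.42) and ILMN_2756353 (0.70), both Folr2 probes (1.06 and 1.01), Mrc1 (0.91) and Csf1r ILMN_2710819 (0.91). The calls of Adgre1 ILMN_2847787 (0.89), Stab1 (0.69) and Csf1r ILMN_1230485 (0.52) ended without that array. Leaving out FtMT-Adip 1 does not remove the muscle difference, because the summed muscle signal of FtMT-Adip 2 also exceeded that of both WT arrays. The part of muscle RNA in the receptor values was not tested.

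For T and NK cells 0 of 6 tested markers were called, for B cells 0 of 4, for dendritic cells 0 of 4 and for epithelium 0 of 1, which was 1 of 1 without FtMT-Adip 2. Of 6 tested mast cell markers, 3 were higher and 1, Kit, was lower, with a median of 1.03. Ms4a2, another mast cell marker, was not above background on any array. The summed signal of the 6 was 2417 and 1986 in FtMT-Adip, against 1648 and 1316 in WT. Of 4 tested neutrophil markers 0 were higher (1 without WT 2) and 1 was lower, and of 7 fibroblast markers 1 was higher and 1 lower. The fibroblast count was 0 higher without FtMT-Adip 1 or WT 1 and 3 without FtMT-Adip 2, and the mast cell count was 2 to 4 higher and 0 lower without any 1 array. The part of these cells in the receptor values was not tested.

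**Figure D4:**
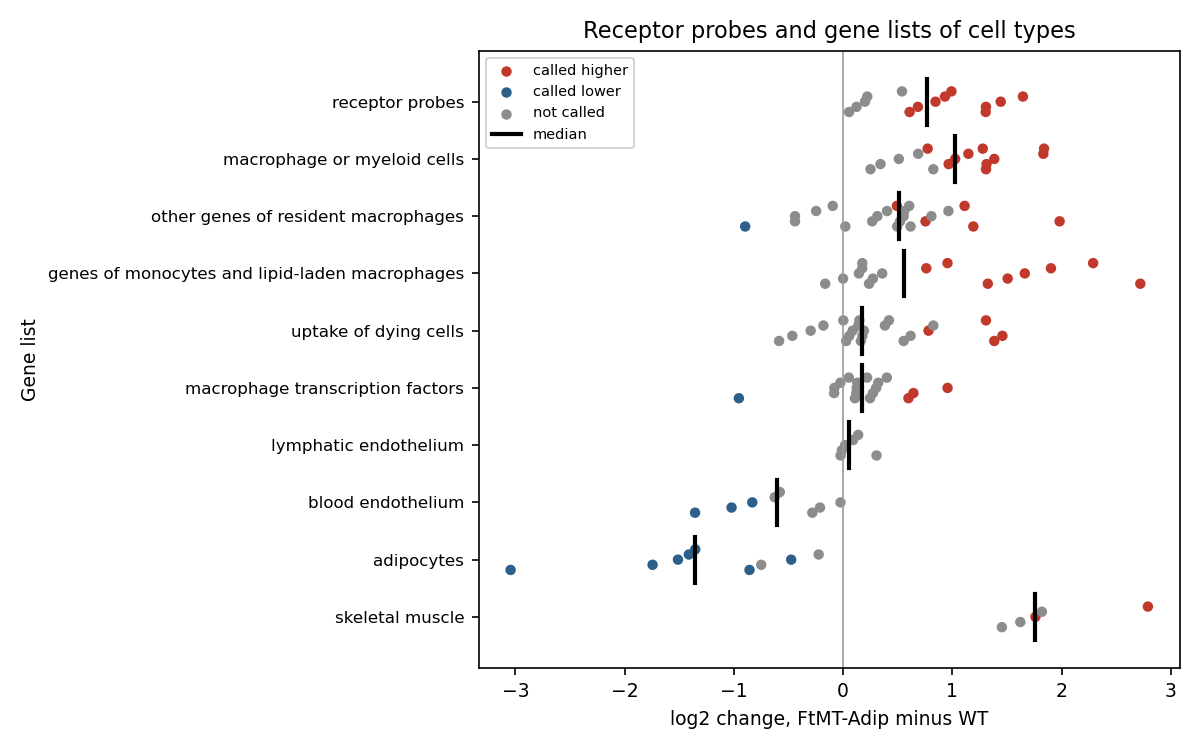
Log2 change (FtMT-Adip minus WT) of the 14 tested receptor probes and of the tested genes of 9 lists, 1 point each, red where called higher, blue where called lower and grey where not called; black bars are medians. Receptor probes and myeloid markers lie mostly to the right, lymphatic markers around 0, and blood endothelial and adipocyte markers to the left.

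With all 4 arrays, none of Csf1, Il34, Gas6 and Pros1 was called higher. They encode some of the ligands of CSF1R and MERTK. Il34, which encodes a ligand of CSF1R, gave 164 and 161 in FtMT-Adip 1 and 2, against 215.5 and 210.8 in WT 1 and 2, a fall of the log2 signal (-0.55, SE 0.132, limma adjusted p = 0.0406) whose call ended without any 1 of the 4 arrays (-0.61 to -0.49). Csf1, which encodes the other ligand, gave 262.2 and 290.1 in FtMT-Adip, against 284.2 and 228.4 in WT, with overlap and a log2 change of 0.11 (SE 0.162, limma adjusted p = 0.772). Of the bridging proteins for MERTK, Gas6 stood at 0.62 (SE 0.226, limma adjusted p = 0.151), between 0.26 without FtMT-Adip 1 and 0.99 without FtMT-Adip 2, where it was called higher (limma adjusted p = 0.0121), and Pros1 stood at 0.15 (SE 0.155, limma adjusted p = 0.656). Csf1, Gas6 and Pros1 fall outside the naming rule and were added after their values were seen. In the list of 10 macrophage growth factors and receptors, 6 genes were tested, 1 was higher, Csf2ra (0.66), which lost its call without FtMT-Adip 1, WT 1 or WT 2 (0.47 to 0.84), and 1 was lower, Il34. The median was 0.17. In the values the authors normalized, 0 of the 6 were called in either direction.

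Of 18 tested macrophage transcription factors, 3 were higher and 1 lower, with a median of 0.18. The higher ones were Spi1 (0.60, SE 0.141), which encodes PU.1, Maf (0.96, SE 0.227, 1 of 2 tested probes called) and Cebpb (0.64, SE 0.161). The lower one was Cebpa (-0.95, SE 0.163), which adipocytes also express. All 3 rises depended on single arrays. Spi1 and Cebpb lost their calls without FtMT-Adip 1, WT 1 or WT 2 (0.51 to 0.69 and 0.52 to 0.77), and Maf without FtMT-Adip 1 or WT 2 (0.65 to 1.26). In the values the authors normalized, 0 were higher and 1 lower.

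Genes for the uptake of dying cells had 4 of 22 tested members higher and 0 lower, with a median of 0.17. They were Sirpa, the receptor for the signal that protects cells from being eaten (1.46, SE 0.167), the complement genes C1qb (1.38, SE 0.159) and C1qc (1.31, SE 0.170), and Axl, the receptor kinase related to Mertk (0.78, SE 0.171). C1qb and C1qc are also among the myeloid markers above. Axl lost its call without FtMT-Adip 1 or WT 2 (0.62 to 0.94) and stood at 0.15 in the values the authors normalized. Without FtMT-Adip 2 the list had 6 higher members, and without WT 1 it had 5 higher and 1 lower. In the values the authors normalized, 2 were higher, and C1qc was not. Of 13 other scavenger receptors tested, 2 were higher and 0 lower, with a median of 0.03. They were Cd68, also a myeloid marker above, and the beta-glucan receptor gene Clec7a (0.82, SE 0.166, 2 of 3 tested probes called). Clec7a lost its call without FtMT-Adip 1 or WT 1 (0.68 to 0.97). The count was 1 without either of these arrays and 4 without FtMT-Adip 2, and 1 in the values the authors normalized.

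Other genes of resident macrophages moved in both directions. Of 22 tested, 5 were higher and 1 lower, with a median of 0.51. The higher ones include C5ar1, which was tested only because both FtMT-Adip arrays exceeded background. Neither WT array did (117.5 and 109.3), and with WT raised to the lowest signal above background its ratio was 1.27-fold. With only probes above background on all 4 arrays, 4 of 19 were higher and 1 lower. Siglec1, the sialic acid receptor CD169, gave 767 and 704 in FtMT-Adip 1 and 2, against 254.1 and 190.2 in WT 1 and 2, a log2 change of 1.98 (SE 0.195, limma adjusted p = 0.00105). The chemokine gene Ccl8 (1.19, SE 0.201) and the lectin gene Mgl2 (1.11, SE 0.168) were also higher. Retnla, a secreted product of alternatively activated macrophages, fell (-0.90, SE 0.150, limma adjusted p = 0.00894). These 4 calls held without any 1 array, while the count of higher members was 3 without FtMT-Adip 1 or WT 2 and 11 without FtMT-Adip 2, and 3 in the values the authors normalized.

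Among genes of monocytes and lipid-laden macrophages, 8 of 16 tested were higher and 0 lower, with a median of 0.56. The highest changes were those of Gpnmb, a glycoprotein of lipid-laden macrophages (2.72, SE 0.296), the lipid receptor gene Trem2 (2.29, SE 0.211), the elastase gene Mmp12 (1.90, SE 0.271) and the osteopontin gene Spp1 (1.66, SE 0.395). Spp1 lost its call without WT 1 or WT 2 (0.88 to 2.43). The brightest Adgre1 probe changed by 1.65 and the Folr2 probes by 1.44 and 1.31 on the same scale, and differences between these genes were not tested.

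Of 14 tested family relatives of the receptors, 2 were higher and 1 lower, with a median of 0.14. The hyaluronan receptor gene Cd44 (0.80, SE 0.181, 2 of 4 tested probes called) and Axl, also in the uptake list, were higher. Kit, a receptor kinase of the Csf1r family that mast cells carry, was lower (-0.67, SE 0.165). Kit lost its call without any 1 array (-0.80 to -0.55) and Cd44 without FtMT-Adip 1, WT 1 or WT 2 (0.59 to 1.03). The count of higher relatives was 0 without FtMT-Adip 1 or WT 2, 1 without WT 1 and 5 without FtMT-Adip 2, and 1 in the values the authors normalized, where Kit was not called. In haemoglobin and haem clearance, the pathway of Cd163, 2 of 12 tested genes were higher and 1 lower, with a median of 0.10. Hp, which encodes the haemoglobin-binding protein haptoglobin, gave 3397 and 3648 in FtMT-Adip, against 15488 and 17956 in WT. Its log2 change was -2.17 (SE 0.143, limma adjusted p = 0.000429). Adipocyte markers fell on the same arrays, and the part of the lower adipocyte signal in the Hp value was not tested. The ferritin light chain gene Ftl1 (1.11, SE 0.126), whose near-identical copies can share a probe, and the metal transporter gene Slc11a1 (1.08, SE 0.196) were higher, and Slc11a1 lost its call without FtMT-Adip 1 or WT 1 (0.86 to 1.32). The list had 4 higher genes without FtMT-Adip 2 and 1 without FtMT-Adip 1 or WT 1.

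The genes whose pattern over the 4 arrays was nearest to that of the brightest Adgre1 probe, by Euclidean distance between log2 values centred on their own mean, were Rgs1 (distance 0.0884), Dpep2 (0.100) and Slc37a1 (0.115). Rgs1 gave 826 and 695 in FtMT-Adip 1 and 2, against 224 and 301 in WT 1 and 2, a log2 change of 1.71. Dpep2 changed by 1.56 and Slc37a1 by 1.76. With 4 arrays, many probes share such a pattern.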

How the data were processed

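The 2 FtMT-Adip and 2 WT arrays were taken from the table that the authors deposited without normalization, which holds linear intensity values, per the file headers. The authors also deposited a table of normalized intensity values, whose method the sources used here do not state, with a ratio of group means and a p-value per probe that the authors computed. Per the labels' protocols, Trizol RNA was treated with DNase I and labelled with biotin. Detection p-values were not used here, so background came from receptor probes, and normexp correction (offset 50), quantile normalization and log2 were applied. FtMT-Adip was compared with WT by limma 3.58.1 in R 4.3.3 (lmFit, eBayes with a variance trend, two-sided, Benjamini-Hochberg over 20884 probes, called under 0.05). The fit was run on simulated independent normal values for the brighter probes, with a spread set by mean signal alone. That simulation does not cover probes that differ in spread at the same signal or vary together. SE is the moderated standard error, which combines a probe's own spread (2 residual degrees of freedom) with a spread shared across probes (median prior 6.89).

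Target names of 22864 probes equalled a RefSeq symbol (GRCm38.p6), and those of 11917 a synonym of one. A gene in a list is represented by its brightest tested probe. Some genes are in more than 1 list, so the counts of the lists are not separate results. Over all tested probes, 3.27% were called higher and 4.15% lower. From each list up to 4 genes are named, the called ones with the largest change, then those with the smallest p, and some lists are given by counts only. Receptors and lists were chosen with earlier results of these data known. Replicate numbers are labels only: deviations of same-numbered arrays from their group means correlated at r = -0.0792 across probes. Alternatives were other background corrections, normalizations and filters, no variance trend, a replicate block, the authors' normalized values (log2 with a pseudocount of 1) and leaving out each array. The sources used here give no slide or scan date, so no batch could be examined.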

Additional observations from a re-analysis of the deposited data

How the results depend on the processing

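Alternatives were run on the 14 tested receptor probes, giving 180 values beside those reported. Of these, 164 kept their direction and their side of the threshold, 13 lost a call, 1 gained one (Cd163 without a variance trend) and 2 changed sign, Lyve1 in the authors' normalized values (-0.000796) and Marco without WT 2 (-0.12; the highest value with 1 array left out was 0.37). The number of receptor probes called higher was 5 in the authors' normalized values and 5 to 9 when 1 array was left out, against 9 as reported, and 0 were lower throughout. The losses in the authors' normalized values were both Csf1r probes (0.69 and 0.93), Adgre1 ILMN_2756353 (0.94) and Mrc1 (0.65); the cause was not tested. Over all tested probes the count was 1550, 699 in the authors' normalized values and 662 (without FtMT-Adip 1) to 1592 (without FtMT-Adip 2) when 1 array was left out, with 896 without WT 1, where fewer samples enter the fit. With the replicate number as a block, 1232 probes and 9 receptor probes were called, and the block changed no receptor call, while it left 0 calls among the growth factors and receptors and 1 higher transcription factor. Of the ligands, Csf1 ran between -0.052 (without WT 2) and 0.27 (without WT 1) with 1 array left out and stood at -0.40 in the authors' normalized values, where Pros1 stood at -0.039. Signals near background limit Msr1, Marco and the dimmer Cd163, Mertk and Adgre1 probes. Across the alternatives, the median change of all tested probes ran between -0.0021 and 0.0186 on the log2 scale.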

Other observations

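The array also carries 3 probes listed as MSR2, an older name of Fcrls, a gene other than Msr1 that encodes an Fc receptor-like scavenger receptor, so they were not counted as Msr1. They were picked out after their values were seen. Their signals were 162 and 149, 1079 and 779, and 375 and 279 in FtMT-Adip 1 and 2, against 164 and 153, 997.1 and 949.8, and 297 and 344 in WT 1 and 2. The groups overlapped on each of these probes, and the log2 changes were -0.06, -0.09 and -0.01, with limma adjusted p-values of 0.848, 0.859 and 0.985.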
